A study of Mus musculus with 38 samples.

Results

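The loci of 7 chemokine receptor genes (Ccr7, Cxcr5, Cxcr4, Cxcr3, Ccr2, Cxcr6 and Cx3cr1) were followed by ATAC-seq, an assay in which the Tn5 transposase cuts open chromatin so that reads mark accessible DNA. An accessible region, or peak, was given to a locus when that gene's body was the nearest among 21896 protein-coding genes of the mouse annotation and lay within 100000 bp. This gave 61 of 73610 peaks in a table of endogenous tumour-infiltrating cells and 83 of 169323 peaks in a table of OT-1 and naive cells, 144 of 242933 in all. Of these, 60 and 70 averaged at least 10 normalized reads over their table and were tested. In the endogenous and OT-1 tables, Cxcr4 had 19 and 26 peaks, Ccr7 11 and 16, Cxcr5 10 and 13, Cx3cr1 7 and 10, Ccr2 7 and 7, Cxcr3 5 and 8, and Cxcr6 2 and 3. Every peak of Ccr2, Cxcr3 and Cxcr6 was tested in both tables, and the peaks left untested belonged to Cxcr4 (1 and 8), Ccr7 (0 and 1), Cxcr5 (0 and 3) and Cx3cr1 (0 and 1).

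All cells were CD8+ T cells of C57BL/6J mice that the labels call wild type, aged 64-68 weeks (aged) or 10-12 weeks (young). Tumour cells came from B16-OVA melanoma, a mouse line that carries the ovalbumin antigen, 15 days after inoculation. Surface markers split them into Tadys (Slamf6- Tim-3-, age-associated dysfunctional, aged animals), Tterm (Slamf6- Tim-3+, terminally exhausted) and Tprog (Slamf6+ Tim-3-, progenitor exhausted). The endogenous groups were aged Tadys (n = 2), aged Tterm (n = 3), young Tterm (n = 5), aged Tprog (n = 3) and young Tprog (n = 4). The second table held aged OT-1 Tterm (n = 6), young OT-1 Tterm (n = 7), aged OT-1 Tprog (n = 2), young OT-1 Tprog (n = 2), all from tumours, and naive cells of aged (n = 2) and young (n = 2) spleens. OT-1 cells carry a transgenic T cell receptor for ovalbumin. For OT-1 libraries the labels name an age without saying whether it is that of the cells or of the host. Libraries are described as pools of sorted cells in 2 or 3 biological replicates, some groups hold more libraries than that, and part of the spread behind the p-values may be technical.

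Chemokine receptors are G protein-coupled receptors that steer migrating cells along gradients of chemokines, small secreted proteins. CCR7 answers CCL19 and CCL21 and takes naive and central memory T cells into lymph nodes, CXCR5 answers CXCL13 of B cell follicles, and CXCR4 answers CXCL12 of bone marrow and stroma. CXCR3 answers the interferon-induced CXCL9, CXCL10 and CXCL11 and marks activated and memory T cells, CCR2 answers CCL2, CXCR6 answers CXCL16 and is linked with tissue residency, and CX3CR1 answers CX3CL1 and marks effector T cells. An open region near a gene is not a measure of its transcript, and peaks were linked to genes by distance alone.

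Depth in peaks ran over libraries from 4.64 to 87.6 megareads in the endogenous table and from 6.80 to 27.7 megareads in the other. Values are normalized reads per peak, that is reads divided by a size factor per library, not scaled for peak width. One pair of libraries stood apart. The 2 aged OT-1 Tprog libraries correlated at r = 0.73 over peaks, on log2 values, while the other replicate pairs lay between 0.86 and 0.97, and results that use them are given with and without each. Both came from sequencing batch 6, both young OT-1 Tprog libraries from the entry for batches 4 and 5, and all naive libraries from batch 3, so that between tumour and naive cells batch and tissue cannot be told apart. All endogenous libraries share 1 entry for batches 1 and 2, which does not say which library belongs to which. The endogenous contrasts therefore carry no batch term, and a batch difference within them could not be checked. Cd8a had an accessible gene end in every group. Havcr2, which encodes Tim-3, had 1442 to 1707 reads in endogenous Tterm libraries and 561 to 733 in Tprog libraries at its gene end. Slamf6 had 171 to 264 in Tterm and 308 to 565 in Tprog. Among 6 B cell markers only Cd79b had a peak at a gene end in the endogenous table.

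Promoter sequences are shown for Cxcr3, Cx3cr1, Cxcr6 and Cxcr4, whose windows lie wholly inside a peak of both tables and whose start peaks are the ones compared. Each window runs 5′ to 3′ on the gene's strand from 250 bases before to 50 bases after the start, in the RefSeq annotation of GRCm38.p6. Capitals mark matches, on either strand, to TGANTCA (AP-1), CTTTGA (TCF/LEF), TGTGGT (RUNX), AGGTGTGA (T-box), CACCC (KLF), GGAAA (NFAT) and CAGCTG (an E-box).
Cxcr3, chrX:101734098-101734397, minus strand: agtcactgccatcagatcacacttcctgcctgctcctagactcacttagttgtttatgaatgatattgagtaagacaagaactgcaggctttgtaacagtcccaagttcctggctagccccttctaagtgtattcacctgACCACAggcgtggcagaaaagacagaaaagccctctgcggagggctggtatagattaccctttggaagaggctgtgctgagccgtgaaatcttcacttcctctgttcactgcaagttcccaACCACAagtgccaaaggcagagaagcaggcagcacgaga
Cx3cr1, chr9:120068247-120068546, minus strand: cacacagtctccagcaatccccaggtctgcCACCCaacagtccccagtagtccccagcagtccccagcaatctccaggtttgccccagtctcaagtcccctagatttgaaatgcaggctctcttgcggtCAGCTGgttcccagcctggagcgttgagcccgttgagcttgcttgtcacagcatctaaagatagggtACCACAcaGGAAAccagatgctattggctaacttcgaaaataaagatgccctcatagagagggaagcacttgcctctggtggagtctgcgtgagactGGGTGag
Cxcr6, chr9:123806227-123806526, plus strand: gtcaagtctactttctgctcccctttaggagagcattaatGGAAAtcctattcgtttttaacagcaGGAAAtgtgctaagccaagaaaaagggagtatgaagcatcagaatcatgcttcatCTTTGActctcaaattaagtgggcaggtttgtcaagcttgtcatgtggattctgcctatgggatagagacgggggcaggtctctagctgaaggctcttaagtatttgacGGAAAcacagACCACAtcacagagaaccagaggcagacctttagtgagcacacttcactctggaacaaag
Cxcr4, chr1:128592250-128592549, minus strand: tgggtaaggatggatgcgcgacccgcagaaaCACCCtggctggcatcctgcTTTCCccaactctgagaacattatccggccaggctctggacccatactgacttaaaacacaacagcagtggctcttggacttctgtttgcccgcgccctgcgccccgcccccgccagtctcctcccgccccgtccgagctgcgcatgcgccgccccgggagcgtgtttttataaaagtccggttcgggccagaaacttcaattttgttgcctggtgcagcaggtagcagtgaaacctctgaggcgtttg
The Cxcr3 window held 2 RUNX matches and no other match, the Cx3cr1 window 1 RUNX, 2 KLF, 1 NFAT and 1 E-box match, the Cxcr6 window 1 TCF/LEF, 1 RUNX and 3 NFAT matches, and the Cxcr4 window 1 KLF and 1 NFAT match. None held an AP-1 or T-box match. Over all 32851 promoter windows of the same length, 16.8% held the RUNX letters, 57.5% KLF, 61.3% NFAT, 16.0% TCF/LEF, 16.3% the E-box, 7.81% AP-1 and 1.28% T-box. The short KLF and NFAT letters are thus found in most promoters. Ccr7 and Cxcr5 are named without a sequence.

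The first comparison asks how the terminally exhausted subset differs from its progenitor. Accessibility fell at the loci of the lymphoid-homing receptors Ccr7 and Cxcr5 and rose at Ccr2 in Tterm. At Cx3cr1 and Cxcr6 it rose in endogenous Tterm. In OT-1 cells no Cxcr6 peak was called. Of 9 Cx3cr1 peaks there, 1 was higher in young Tterm, and 5 were higher and 1 lower in aged Tterm. In young endogenous cells 36 of 60 peaks were called (adjusted p of limma under 0.05), 12 higher and 24 lower in Tterm than in Tprog, where 14.3% of all tested peaks were called higher and 11.3% lower. In aged endogenous cells 7 were higher and 18 lower, against a background of 6.75% higher and 5.37% lower. In young OT-1 cells 4 of 70 were higher and 18 lower (background 4.06% and 3.57%), and in aged OT-1 cells 11 were higher and 16 lower (background 11.3% and 3.39%). The median log2 difference over the peaks of the 7 loci was -0.40 in young endogenous cells and the median over all peaks -0.01. Scaling every library to the same total moved the median of all peaks by -0.155 on the log2 scale in this young endogenous contrast, by -0.121 in young and -0.399 in aged OT-1 Tterm against Tprog, by 0.271 for age in OT-1 Tprog, by -0.230 for age in naive cells, by -0.202 for young OT-1 Tterm against naive cells and by 0.111 for the age by subset term.

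**Figure D1:**
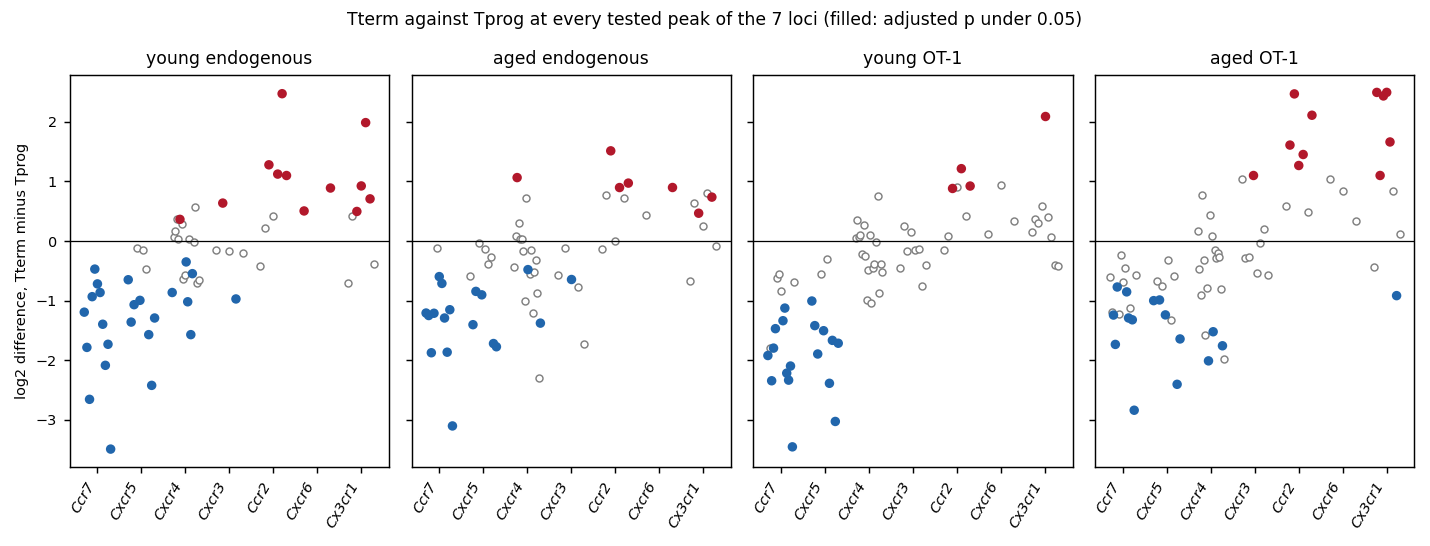
Log2 difference of Tterm minus Tprog (y axis) at every tested peak of each locus (x axis), in 4 panels for young and aged endogenous cells and young and aged OT-1 cells; within a gene, points run by position. Filled points have an adjusted p under 0.05, red above 0 and blue below, and Ccr7 and Cxcr5 hold only blue filled points while Ccr2 holds only red ones.

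At Ccr7 all 11 endogenous peaks fell in young Tterm, over an interval of 47.8 kb around the gene body (chr11:99144199-99155077). The lead peak, the one with the highest mean, lies at chr11:99154003-99155573 across an end of the gene. It had 869.7 and 1250.4 reads in aged Tadys, 899.9, 797 and 660.2 in aged Tterm, 810.0, 802, 661, 552 and 683 in young Tterm, 1034, 1276 and 1242 in aged Tprog and 1038, 1277, 1207 and 1072 in young Tprog. Neither age showed an overlap between Tterm and Tprog libraries, and 1 Tadys library lay among the Tterm values and the other among the Tprog values. The log2 difference between Tterm and Tprog was -0.72 ± 0.13 (SE, adjusted p = 0.00016) in young and -0.60 ± 0.16 (SE, adjusted p = 0.0132) in aged cells. The steepest contrast lay farther out, at chr11:99170666-99171753, 15589 bp beyond the gene body. There the reads were 91.3, 62.8 and 48.9 in aged Tterm and 67.5, 56, 52.2, 31.8 and 48.4 in young Tterm, against 515, 584 and 613 in aged Tprog and 574, 587, 595 and 521 in young Tprog. The groups were far apart, with log2 differences of -3.49 ± 0.21 (SE, adjusted p = 6.61e-12) in young and -3.10 ± 0.26 (SE, adjusted p = 1.72e-08) in aged cells. A peak inside the gene, chr11:99150058-99151498, changed least, with 786, 835, 773, 676 and 686 reads in young Tterm and 995, 1033, 1121 and 1006 in young Tprog. Its log2 difference was -0.47 ± 0.13 (SE, adjusted p = 0.0069) in young and -0.11 ± 0.16 (SE, adjusted p = 0.728) in aged cells, the only 1 of the 11 not called in aged cells. Thus the differences at this locus spanned -0.47 to -3.49 on the log2 scale in young cells, the smallest inside the gene and the largest at the peak of highest coordinate.

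The OT-1 cells gave the same direction at every called Ccr7 peak. Of 15 tested peaks 10 fell in young Tterm and 7 in aged Tterm, and none rose. The outer peak, here chr11:99170657-99171760, had 24.7 to 44.2 (median 38.1) reads over 6 aged OT-1 Tterm libraries and 17.6 to 46.8 (median 33) over 7 young ones. Tprog libraries had 253 and 349.8 when aged and 331 and 379.6 when young, and naive cells 255 and 292 when aged and 421 and 433 when young. Tterm libraries were thus low and every Tprog and naive library high. The log2 difference between Tterm and Tprog was -3.45 ± 0.30 (SE, adjusted p = 1.14e-07) in young and -2.84 ± 0.36 (SE, adjusted p = 1.02e-05) in aged OT-1 cells. At the gene-end peak chr11:99154014-99155602 young OT-1 Tterm had 299 to 429 (median 398) reads and young OT-1 Tprog 946 and 997. That difference was -1.34 ± 0.23 (SE, adjusted p = 0.000401). In aged OT-1 cells the same peak had 351 to 552 (median 479) in Tterm and 468 and 782 in Tprog, with a log2 difference of -0.45 ± 0.27 (SE, adjusted p = 0.26), which was not called. Without aged OT-1 Tprog library 1, 7 Ccr7 peaks were called lower in aged Tterm, and without library 2, 5 were.

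**Figure D2:**
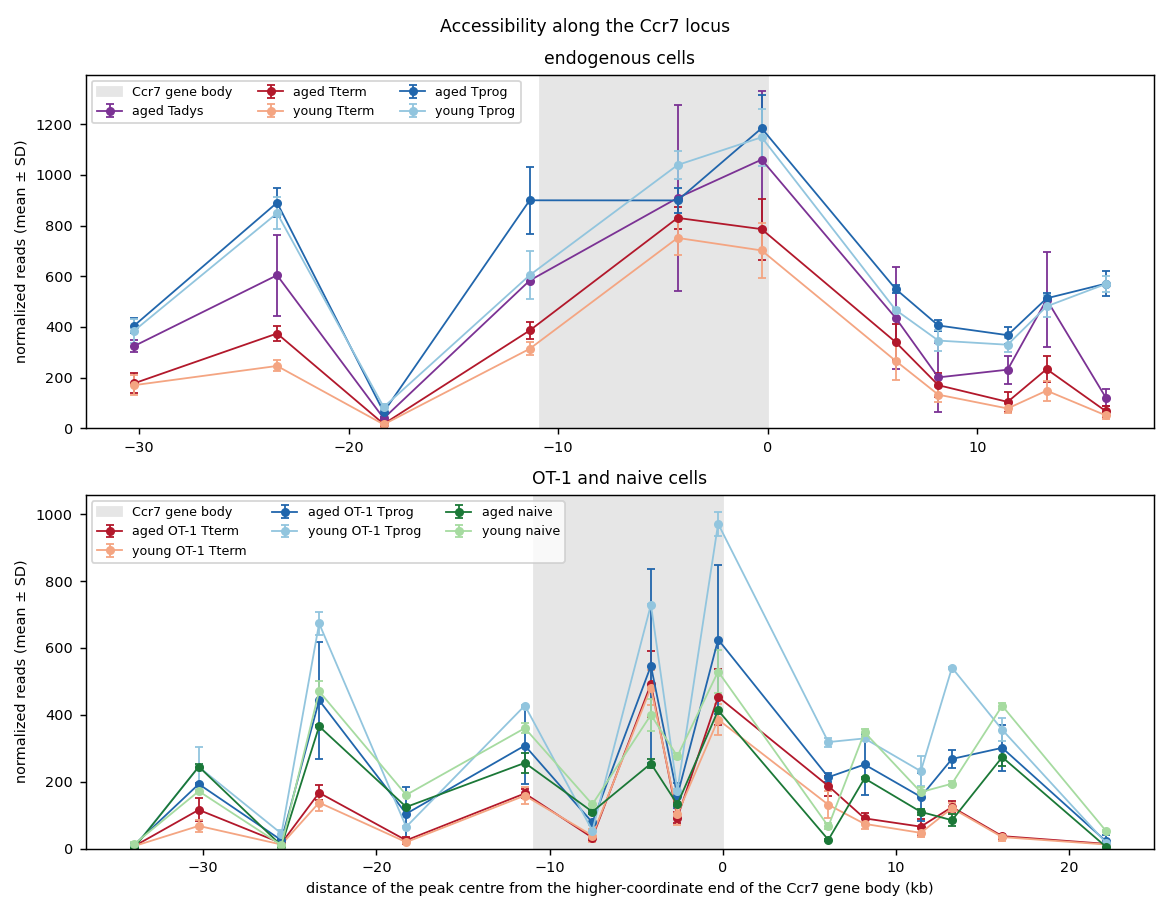
Mean normalized reads ± SD (y axis) of each Ccr7 peak against the distance of its centre from the higher-coordinate end of the gene body in kb (x axis), for endogenous groups (top) and OT-1 and naive groups (bottom); the grey band is the gene body and the lines only join the peaks of a group. Red Tterm lines run below blue Tprog lines over the endogenous locus, and at the last endogenous peak to the right and the OT-1 peak at the same place the 4 Tterm means lie between 34.2 and 67.7 reads.

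Cxcr5, whose product reads the follicle chemokine CXCL13, fell likewise. Of its 10 endogenous peaks 7 were lower in young Tterm and 5 in aged Tterm, and none was higher, also with equal library totals. Its lead peak, chr9:44525928-44527337 across an end of the gene, had 667, 599 and 465 reads in aged Tterm and 456, 445, 474, 424 and 367 in young Tterm, against 1057, 1032 and 988 in aged Tprog and 841, 1009.6, 909 and 869 in young Tprog. No Tterm library reached a Tprog library. The log2 differences were -1.07 ± 0.13 (SE, adjusted p = 5.24e-07) in young and -0.84 ± 0.16 (SE, adjusted p = 0.00051) in aged cells. The largest change in the young endogenous contrast was at chr9:44554586-44556049, 28142 bp from the gene body, with 31.9, 22.1, 24.4, 45.5 and 38.2 reads in young Tterm and 137, 229.9, 167 and 166 in young Tprog. Its log2 difference was -2.42 ± 0.27 (SE, adjusted p = 1.33e-07) in young and -1.72 ± 0.33 (SE, adjusted p = 0.000638) in aged cells. In OT-1 cells 8 of 10 tested peaks fell in young Tterm and 5 in aged Tterm, also without aged OT-1 Tprog library 1 or 2. The overlapping distal peak, chr9:44554883-44556249, had 10.2 to 28.7 (median 18.6) reads in young OT-1 Tterm, 186 and 160.3 in young OT-1 Tprog and 9 and 23.3 in young naive cells. Only young OT-1 Tprog libraries were high there, and the aged OT-1 Tprog libraries had 71 and 67.2. The log2 difference between Tterm and Tprog was -3.03 ± 0.42 (SE, adjusted p = 3.76e-05) in young and -2.40 ± 0.50 (SE, adjusted p = 0.00208) in aged OT-1 cells.

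Beside these losses, Cd79b, the 1 B cell marker with a gene-end peak in the endogenous table, had 17.2 to 38.6 reads in aged Tterm, 13.5 to 32.8 in young Tterm, 7.48 to 40.4 in aged Tprog and 22.1 to 51.0 in young Tprog. These ranges overlapped between the subsets at both ages.

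Cxcr4, the receptor for CXCL12, had the most peaks and a mixed pattern. In young endogenous cells 1 of 18 tested peaks rose and 5 fell in Tterm, in aged cells 1 rose and 2 fell, and in OT-1 cells none was called in young and 3 fell in aged Tterm. Its lead peak covers the promoter (chr1:128590749-128593433) and had 1208, 889.6 and 1087 reads in aged Tterm and 1133, 1156, 1088, 984 and 938 in young Tterm, against 1603, 1316 and 1502 in aged Tprog and 1340.1, 1274, 1427 and 1351 in young Tprog. The groups lay close but did not overlap at either age. The log2 difference was -0.35 ± 0.11 (SE, adjusted p = 0.0199) in young cells and -0.48 ± 0.14 (SE, adjusted p = 0.0177) in aged cells. A young Tterm gain was called at chr1:128548302-128549879, 38320 bp from the gene body, with 1138, 1259.5, 1179.5, 1168 and 977 reads in young Tterm and 936, 991, 906 and 734 in young Tprog and a log2 difference of 0.36 ± 0.13 (SE, adjusted p = 0.0392). With equal library totals that gain was not called, no Cxcr4 peak was higher and 6 were lower. Among the losses, chr1:128601142-128601675 had 54.4, 75, 89.2, 47.8 and 72.8 reads in young Tterm and 116, 141, 148 and 138 in young Tprog, a log2 difference of -1.02 ± 0.24 (SE, adjusted p = 0.00173). The OT-1 peak at this place, chr1:128601003-128601668, had 17.2 to 32 (median 23.9) reads in aged OT-1 Tterm and 52.4 and 189.6 in aged OT-1 Tprog. The log2 difference was -2.01 ± 0.39 (SE, adjusted p = 0.00101) in aged and -0.98 ± 0.32 (SE, adjusted p = 0.0643) in young OT-1 cells. In aged OT-1 cells 1 Cxcr4 peak was higher and 4 were lower without aged OT-1 Tprog library 1, and as many each way without library 2.

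At Cxcr3, 1 of 5 endogenous peaks was called higher and 1 lower in young Tterm, and 1 was called lower in aged Tterm. In young endogenous cells its start peak, chrX:101733593-101734415, had 641, 763, 576, 683 and 875 reads in Tterm and 555, 482, 345 and 444 in Tprog, with a log2 difference of 0.64 ± 0.14 (SE, adjusted p = 0.00115). A distal peak moved the other way, chrX:101754362-101755590, with 65.6, 73.4, 38.7, 31.1 and 63.9 reads in young Tterm and 42.5, 191, 118 and 114 in young Tprog and a difference of -0.97 ± 0.36 (SE, adjusted p = 0.0467). In aged endogenous cells only the lead peak chrX:101736696-101738119 was called, at 631, 529 and 379 reads in Tterm and 638, 895 and 825 in Tprog, a log2 difference of -0.63 ± 0.18 (SE, adjusted p = 0.0163). All 5 Cxcr3 peaks had a difference below 0 in aged endogenous cells. Their median was -0.63, beside 0.01 over all tested peaks, and they share libraries. In OT-1 cells none of 8 was called in young cells. In aged ones the start peak was called, with 259.7 to 406 (median 342) reads in Tterm and 119.9 and 252 in Tprog and a log2 difference of 1.10 ± 0.29 (SE, adjusted p = 0.0133). The 2 Tprog libraries lay well apart, and no Cxcr3 peak was called without library 1, while 1 was higher without library 2.

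Ccr2 rose in Tterm in every contrast. Of 7 peaks, 4 were higher in young and 3 in aged endogenous Tterm, 3 in young and 5 in aged OT-1 Tterm, and none was lower. With equal library totals 2 were higher in young and 3 in aged OT-1 Tterm. The endogenous counts of higher peaks stayed the same, but 1 young endogenous peak was then called lower. Its lead peak, chr9:124114605-124115561, lies 5465 bp from the gene body and had 583, 719 and 700.0 reads in aged Tterm and 773, 774, 765, 754 and 772 in young Tterm. Tprog libraries had 292, 388 and 342 when aged and 447, 417, 299 and 295 when young, so that every Tterm library was above every Tprog library. The log2 differences were 1.10 ± 0.14 (SE, adjusted p = 1.53e-06) in young and 0.97 ± 0.18 (SE, adjusted p = 0.000321) in aged cells. In OT-1 cells the peak at the same place had 386 to 707 (median 530.2) reads in aged Tterm and 311 to 792 (median 343) in young Tterm, against 158 and 107 in aged Tprog and 199.7 and 197 in young Tprog. Here too no library crossed over, with log2 differences of 0.92 ± 0.28 (SE, adjusted p = 0.0432) in young and 2.11 ± 0.34 (SE, adjusted p = 0.000147) in aged OT-1 cells. In the aged contrast 4 Ccr2 peaks were higher without aged OT-1 Tprog library 1 and 5 without library 2, and none was lower. The young OT-1 call was lost with equal library totals, with no filter on low peaks and with edgeR. A peak inside the gene, chr9:124102788-124103821, had 223, 268, 248, 278 and 254 reads in young endogenous Tterm and 125, 180.2, 75.2 and 106 in young Tprog, a log2 difference of 1.12 ± 0.20 (SE, adjusted p = 0.000139). The peak before the gene, chr9:124098991-124099968, differed by 1.28 ± 0.21 (SE, adjusted p = 4.73e-05) in young and 1.51 ± 0.26 (SE, adjusted p = 0.00019) in aged endogenous cells.

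Cx3cr1, a marker of effector cells, followed Ccr2 in endogenous cells. In endogenous Tterm 4 of 7 peaks were higher in young and 2 in aged cells and none was lower, while equal library totals added 1 lower peak in young cells. Its lead peak, inside the gene at chr9:120054434-120056806, had the highest mean of all endogenous peaks at the 7 loci. It had 1941, 2059.5 and 2129 reads in aged Tterm and 1875, 2271, 2369, 1910.4 and 2065 in young Tterm, against 1679, 1313 and 1461 in aged Tprog and 1567, 1757, 1397 and 1251 in young Tprog. Tterm libraries were all higher, by 0.50 ± 0.13 (SE, adjusted p = 0.00387) on the log2 scale in young and 0.47 ± 0.15 (SE, adjusted p = 0.043) in aged cells. The start peak, chr9:120067594-120068895, had 478, 627 and 587 reads in aged Tterm and 422, 596, 597, 515 and 494 in young Tterm, and 319, 331 and 359 in aged Tprog and 307, 374, 310.3 and 288 in young Tprog. It differed by 0.71 ± 0.14 (SE, adjusted p = 0.000251) in young and 0.74 ± 0.17 (SE, adjusted p = 0.00289) in aged cells. The largest young difference was at a small intragenic peak, chr9:120059391-120059648, with 150.0, 169, 167, 111 and 165 reads in young Tterm, 68.5, 29.4, 33.3 and 28.7 in young Tprog and a log2 difference of 1.99 ± 0.32 (SE, adjusted p = 2.49e-05). In young OT-1 cells only the overlapping peak was called, at 69 to 114 (median 80.2) reads in Tterm and 16.7 and 20.0 in Tprog, with 2.10 ± 0.40 (SE, adjusted p = 0.0013). In aged OT-1 cells 5 of 9 tested peaks were higher in Tterm and 1 lower. The lead peak there had 864 to 1489 (median 1313) reads in Tterm and 314 and 1047 in Tprog, a log2 difference of 1.10 ± 0.37 (SE, adjusted p = 0.0438) that edgeR and DESeq2 did not call. One Tprog library was low and the other within the Tterm range, and 4 were higher without library 1 and 6 without library 2, while the 1 lower call was lost both times.

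Cxcr6 rose in endogenous Tterm at both of its peaks in young and at 1 in aged cells. The gene lies inside the body of Fyco1, and its peaks were given to the nearer midpoint. The start peak, chr9:123805473-123806896, had 457, 689.5 and 649 reads in aged Tterm and 383, 617, 543, 613 and 675 in young Tterm, against 449.6, 509.6 and 365 in aged Tprog and 447, 481, 295 and 369.9 in young Tprog. These ranges overlapped, and the log2 difference was 0.50 ± 0.17 (SE, adjusted p = 0.0263) in young and 0.43 ± 0.20 (SE, adjusted p = 0.193) in aged cells, and the young call was lost with equal library totals. The intragenic peak chr9:123807821-123808803 had 206, 239 and 257 reads in aged Tterm and 244, 183, 206, 226 and 248 in young Tterm, against 115, 125 and 132 in aged Tprog and 106, 95.6, 134 and 144 in young Tprog. It differed by 0.89 ± 0.18 (SE, adjusted p = 0.000516) in young and 0.90 ± 0.22 (SE, adjusted p = 0.00623) in aged cells. In OT-1 cells no Cxcr6 peak was called between the subsets in young or in aged cells, but 1 of 3 was higher in aged Tterm without aged OT-1 Tprog library 2 and none without library 1.

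**Figure D3:**
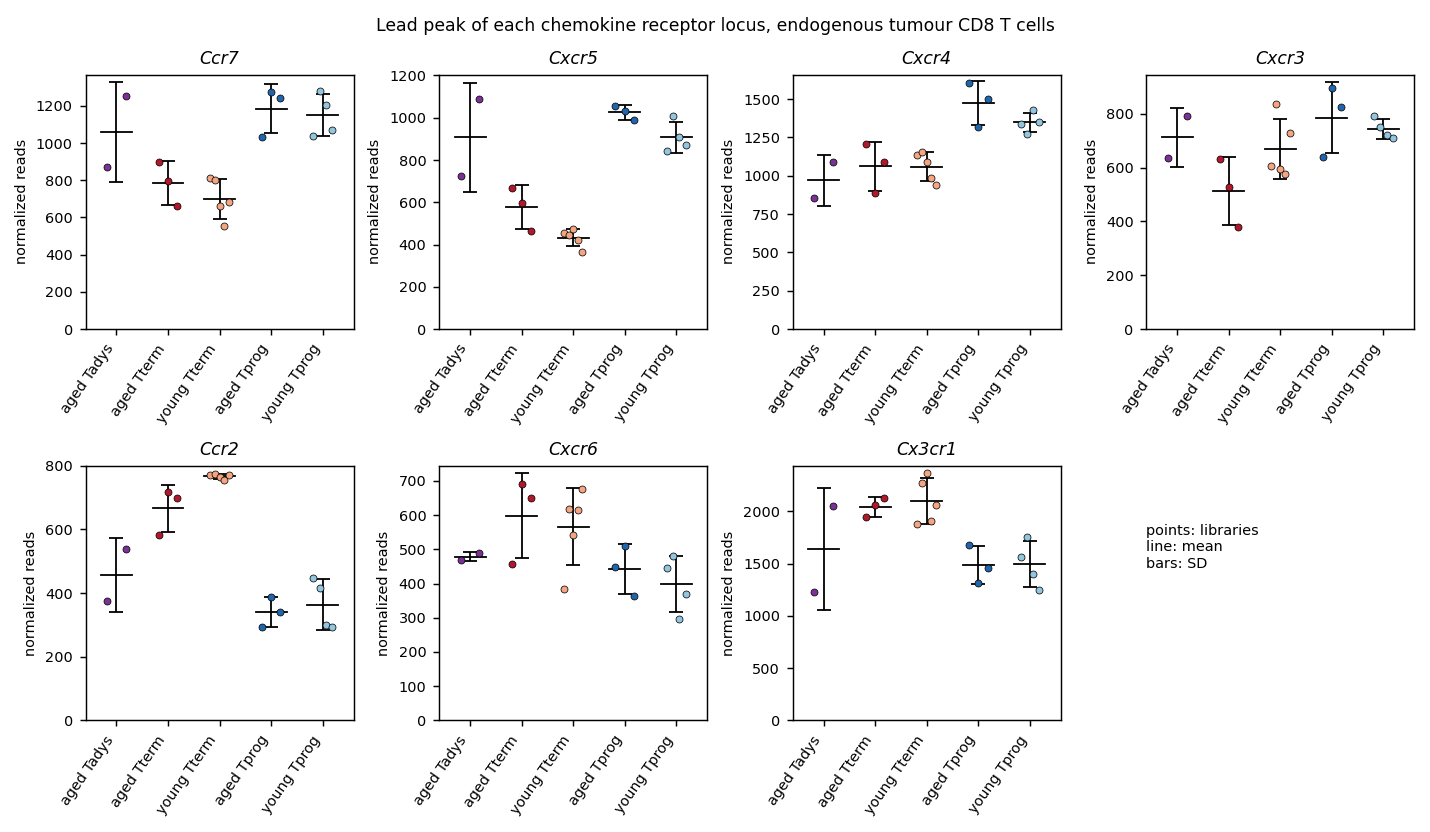
Normalized reads (y axis) of the lead peak of each locus in each endogenous library (points), with the group mean (line) and SD (bars), for aged Tadys, aged Tterm, young Tterm, aged Tprog and young Tprog. Every Tterm point lies below every Tprog point of its age at Ccr7, Cxcr5 and Cxcr4 and above it at Ccr2 and Cx3cr1.

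The tables were normalized apart and share no library, so directions could be set side by side. Of the 61 endogenous peaks, 55 overlapped an OT-1 table peak, in 56 pairs. In young cells 33 of these pairs were called in the endogenous contrast and 21 in the OT-1 contrast. In both, 20 were called, and all 20 had the same direction. All 33 endogenous calls had the same sign in OT-1 cells. In aged cells 17 pairs were called in both, all in the same direction, of 25 endogenous and 27 OT-1 calls. Of the 25 endogenous calls 24 had the same sign in OT-1 cells, and the exception was the Cxcr4 peak chr1:128529384-128530382, at 1.06 ± 0.33 (SE, adjusted p = 0.0312) in endogenous and -0.47 ± 0.62 (SE, adjusted p = 0.608) in OT-1 cells. The OT-1 contrasts carry the batch term, and in the aged one the Tterm libraries were largely of other batches than the Tprog libraries. A fit without batches 4 and 5 left 1 aged Tterm library against 2 aged Tprog libraries, all of batch 6. It also held the naive libraries of batch 3 and the young Tterm libraries of batch 6. With 1 library in a group, that fit cannot decide whether the aged OT-1 calls depend on batch.

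The next question was whether age changes these loci within a subset. In endogenous Tterm 0 of 60 peaks were called between aged and young (background 0.00836%), and 7 had an unadjusted p under 0.05. In endogenous Tprog 0 of 60 were called (background 0.166%), with 9 at an unadjusted p under 0.05. The age by subset term gave 0 of 60 (background 0%), with 4 at an unadjusted p under 0.05. Where limma called 0, edgeR also called 0 in all 3, and DESeq2 called 1 higher peak in Tterm, 1 higher peak in Tprog and 0 for the term. In Tterm all 11 Ccr7 peaks had a difference of aged minus young above 0, with a median of 0.36 on the log2 scale beside 0.00 over all tested peaks, and a median of 0.41 with equal library totals. The peaks of a locus share libraries, and none of the 11 was called. At the Ccr7 peak chr11:99130465-99132868 reads were 394, 386 and 342 in aged Tterm and 253, 217, 277, 246 and 238 in young Tterm, a log2 difference of 0.60 ± 0.14 (SE, adjusted p = 0.153). At chr11:99167976-99168797 they were 292, 205 and 204 in aged Tterm and 186, 146, 181, 144 and 87.2 in young Tterm, a log2 difference of 0.67 ± 0.21 (SE, adjusted p = 0.406). The aged and young libraries did not overlap at either peak, both of which were picked after their values were seen. At the outer Ccr7 peak chr11:99170666-99171753 the log2 difference of aged minus young was 0.39 ± 0.23 (SE, adjusted p = 0.775) in Tterm and 0.00 ± 0.24 (SE, adjusted p = 0.999) in Tprog. At the Ccr2 lead peak it was -0.21 ± 0.16 (SE, adjusted p = 0.847) in Tterm and -0.08 ± 0.16 (SE, adjusted p = 0.886) in Tprog. The highest log2 difference in Tterm, picked after its value was seen, was at the Ccr2 peak chr9:124079359-124081184, with 152, 253 and 202 reads in aged and 114, 149, 70.7, 65.2 and 91.3 in young Tterm and a log2 difference of 1.07 ± 0.30 (SE, adjusted p = 0.29), not called.

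In OT-1 Tterm 16 of 70 peaks had an unadjusted p under 0.05, and 1 was called, lower in aged cells (background 0.088% lower). It is the Cxcr4 peak chr1:128601003-128601668, with 17.2 to 32 (median 23.9) reads in aged and 43.7 to 55.9 (median 52.3) in young OT-1 Tterm, a log2 difference of -1.07 ± 0.22 (SE, adjusted p = 0.029). The aged and young values did not overlap. Leaving out 1 library gave 0 to 3 calls. None was left without aged OT-1 Tterm library 1, 2, 3 or 4, or without young OT-1 Tterm library 2, 3, 4 or 5. All 7 Ccr2 peaks had a difference of aged minus young above 0, with a median of 0.46 beside 0.02 over all tested peaks. Of these, 6 had an unadjusted p under 0.05 and none was called, while 1 was called higher with equal library totals. The Ccr2 peaks share libraries. Within the entry for batches 4 and 5, with 5 libraries a side, 12 of 70 peaks were called, 6 higher and 6 lower in aged cells, where 2.92% of all tested peaks were called higher and 0.879% lower. All 6 of the lower ones belonged to Cxcr4. There its promoter peak averaged 397 ± 59.9 reads in aged and 610.1 ± 106 in young OT-1 Tterm (SD, n = 5 each), a log2 difference of -0.62 ± 0.13 (SE, adjusted p = 0.00972). In the batch 6 libraries it had 441 in the 1 aged and 711 and 488 in the 2 young libraries, lower in the aged one. The 6 higher ones were 2 of Ccr2 and 1 each of Ccr7, Cxcr5, Cxcr6 and Cx3cr1. The Ccr2 peak chr9:124079614-124080818 averaged 92.8 ± 21.7 in aged and 34.4 ± 5.08 in young cells (log2 difference 1.38 ± 0.20, adjusted p = 0.00025). In batch 6 it had 65.3 in the aged and 121 and 39.8 in the young libraries, so the aged value lay between them. The Ccr2 lead peak averaged 564 ± 88.8 in aged and 350.4 ± 34.1 in young cells of that entry, and in batch 6 had 386 in the aged and 792 and 311 in the young libraries.

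In OT-1 Tprog 0 of 70 peaks were called between aged and young (background 0.0951%), with 9 at an unadjusted p under 0.05, and edgeR called 1 and DESeq2 2. This comparison rests on 2 libraries a side in different batches. Without aged library 2, 19 peaks were called, all lower in aged cells, and without aged library 1, 1 was. At the Cxcr4 promoter peak the aged libraries had 443 and 1122 and the young ones 723 and 697 reads, so that the young values lay between the aged ones.

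**Figure D4:**
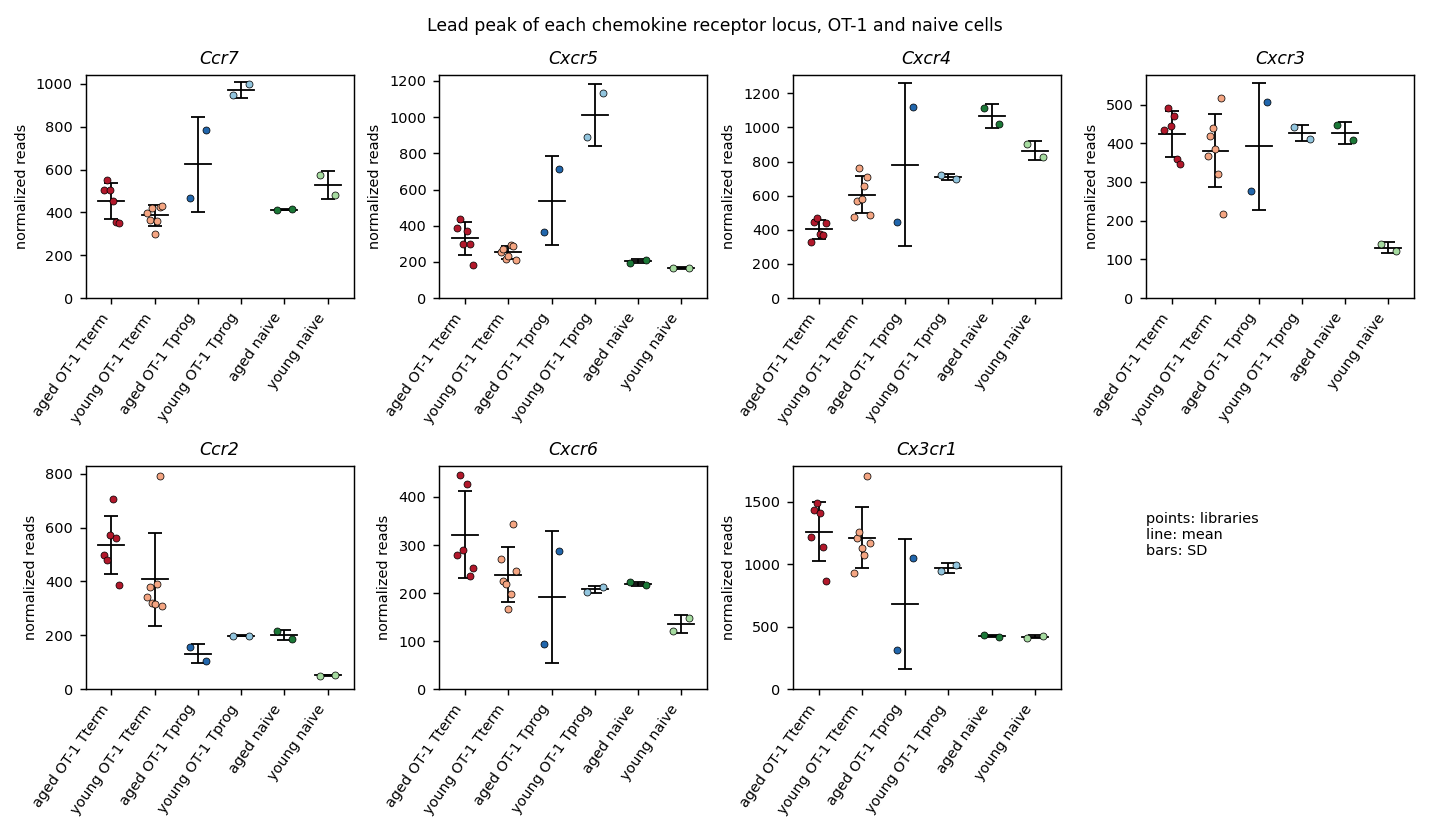
Normalized reads (y axis) of the lead peak of each locus in each library (points), with the group mean (line) and SD (bars), for aged and young OT-1 Tterm, aged and young OT-1 Tprog, and aged and young naive cells. The 2 aged OT-1 Tprog points are wide apart at every locus but Ccr2, and young naive points lie below all others at Cxcr3, Ccr2 and Cxcr5.

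Tadys, the subset without either sorting marker, had a mean between those of aged Tterm and aged Tprog at 10 of 11 Ccr7 peaks, 6 of 10 Cxcr5 peaks, 6 of 19 Cxcr4 peaks, 4 of 5 Cxcr3 peaks, 4 of 7 Ccr2 peaks, 2 of 2 Cxcr6 peaks and 4 of 7 Cx3cr1 peaks. Over all peaks of the table the share was 31.5%. That share includes peaks where aged Tterm and aged Tprog hardly differ, which leaves little room between their means. It is thus not a like baseline for loci such as Ccr7. Against aged Tterm 6 of 60 peaks were higher and 1 lower (background 2.06% and 4.23%), and against aged Tprog 0 were higher and 6 lower (background 2.61% and 4.04%). Of the 60, edgeR called 7 against aged Tterm and 4 against aged Tprog. The 6 higher than in Tterm were 5 of Ccr7 and the Cxcr5 lead peak, and the lower one was a Ccr2 peak. The Ccr7 peak chr11:99130465-99132868 had 491 and 717 reads in Tadys, 394, 386 and 342 in aged Tterm and 826, 939 and 906 in aged Tprog. Both Tadys libraries were above every aged Tterm library and below every aged Tprog library. The log2 difference was 0.67 ± 0.17 (SE, adjusted p = 0.0221) against Tterm and -0.58 ± 0.17 (SE, adjusted p = 0.0424) against Tprog. At the outer Ccr7 peak chr11:99170666-99171753 Tadys had 98.2 and 144 reads, closer to Tterm than to Tprog, with a log2 difference of 0.85 ± 0.29 (SE, adjusted p = 0.0693) against Tterm and -2.25 ± 0.29 (SE, adjusted p = 9.63e-05) against Tprog. The Cxcr5 lead peak had 725 and 1089 in Tadys, 667, 599 and 465 in aged Tterm and 1057, 1032 and 988 in aged Tprog, and differed from Tterm by 0.64 ± 0.18 (SE, adjusted p = 0.0304) and from Tprog by -0.21 ± 0.18 (SE, adjusted p = 0.509). At Ccr2 the peak chr9:124098991-124099968 had 281 and 129 in Tadys and 292, 376 and 498 in aged Tterm, a log2 difference of -0.99 ± 0.29 (SE, adjusted p = 0.0393) that was not called with equal library totals or by edgeR. At Cxcr4 2 peaks were lower than in Tprog, and the promoter peak had 854 and 1089 reads in Tadys and 1603, 1316 and 1502 in aged Tprog, with a difference of -0.61 ± 0.15 (SE, adjusted p = 0.0173). These calls rest on 2 Tadys libraries, whose correlation was 0.86: leaving out aged Tterm library 3 gave 0 calls against Tterm, and leaving out Tadys library 1 gave 2 against Tprog. Cd79b, the B cell marker named above, had 78.1 to 82.0 reads in Tadys and 7.48 to 51.0 in the other endogenous libraries, while Cd79a, Ms4a1, Pax5 and Blnk had no gene-end peak. CCR7 and CXCR5 are expressed by B cells too, and the part of such cells in the Tadys values was not tested. The summed NK marker peaks (2 of 5 genes with a peak) were 887 to 978 in Tadys, 1163 to 1539 in aged Tterm and 1266 to 1357 in aged Tprog. Young Tprog had 908 to 1218, which overlaps Tadys. Sums of CD4 and regulatory T markers were 1627 to 2148 in Tadys, 2139.5 to 2310 in aged Tterm and 1910 to 2271 in aged Tprog. Myeloid sums were 1665 to 1910, 1482.5 to 1773 and 1549 to 1843.5 in the same order, and melanocyte sums 854 to 1041, 992 to 1114 and 1045 to 1135.

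Splenic naive cells differed with age most often at Cxcr3. Among 70 peaks 9 were higher and 4 lower in aged naive cells (background 4.08% and 1.16%), and 6 of the 8 Cxcr3 peaks were among the higher ones. With equal library totals 5 of 8 Cxcr3 peaks were higher. The lead peak, chrX:101736742-101738319, had 447 and 407 reads in aged and 140.1 and 121 in young naive cells. The aged libraries thus lay far above the young ones and beside OT-1 Tterm, which had 347 to 490.1 (median 439.5) when aged. Its log2 difference was 1.70 ± 0.31 (SE, adjusted p = 0.0014). At the start peak, chrX:101733552-101734511, which covers the promoter shown above, aged naive cells had 310.0 and 299 and young ones 115 and 105 reads, a difference of 1.46 ± 0.30 (SE, adjusted p = 0.0037). A peak just before the start, chrX:101735108-101735416, had 73.1 and 57.5 in aged and 13.5 and 10.4 in young naive cells and differed by 2.36 ± 0.42 (SE, adjusted p = 0.00101). The other gains were the Ccr2 lead and start peaks and a Cxcr4 peak. The Ccr2 lead peak had 216 and 188 reads in aged and 51.4 and 52.9 in young naive cells, a difference of 1.93 ± 0.34 (SE, adjusted p = 0.00101). The Ccr2 start peak had 178 and 199 in aged and 57.2 and 52.9 in young naive cells, with 1.76 ± 0.30 (SE, adjusted p = 0.000734). The Cxcr4 peak chr1:128608008-128608483 differed by 1.63 ± 0.46 (SE, adjusted p = 0.0334) and was not called with equal library totals. The losses were 3 Ccr7 peaks and 1 Cx3cr1 peak. At the Ccr7 peak chr11:99160466-99161878 aged naive cells had 24.4 and 28.1 and young ones 59.8 and 73 reads, a difference of -1.30 ± 0.27 (SE, adjusted p = 0.00428), while the Ccr7 lead peak differed by -0.35 ± 0.28 (SE, adjusted p = 0.576) and was not called. The Cx3cr1 peak chr9:120074170-120075371 had 33.6 and 29.4 in aged and 93.8 and 89.8 in young naive cells, with -1.52 ± 0.31 (SE, adjusted p = 0.00386). All 4 libraries came from batch 3, and leaving out any 1 left 7 or 8 of the 13 calls in number. The summed NK marker peaks (3 of 5 genes with a peak) were 1034 to 1132 in aged and 577 to 630 in young naive cells. Sums of melanocyte markers were 558.9 to 598.1 in aged and 393.3 to 400.1 in young ones. Myeloid sums were 827.5 to 898.8 and 704.9 to 724.9, and CD8 T sums 2198.9 to 2276.5 and 1868.4 to 1974.2. B cell sums went the other way, at 105.8 to 109.8 in aged and 141.4 to 145.9 in young cells. So did CD4 and regulatory T sums, at 756.3 to 806.4 and 965.5 to 982.0. The part of other cells in the naive values was not tested. The sources used here do not say how naive cells were gated.

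**Figure D5:**
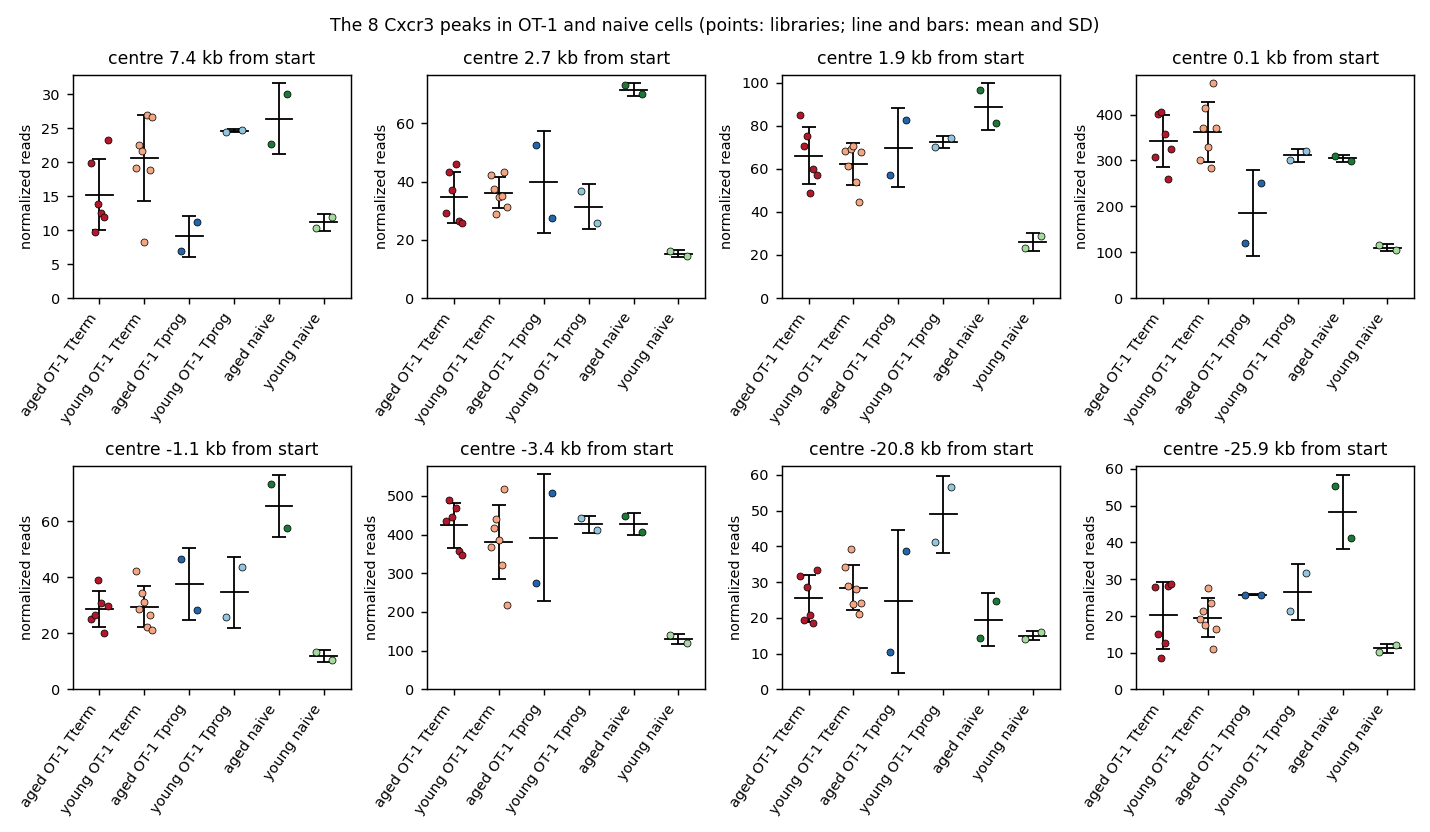
Normalized reads (y axis) of the 8 Cxcr3 peaks in each library (points), with mean (line) and SD (bars), for OT-1 Tterm, OT-1 Tprog and naive cells, aged left of young in each; panel titles give the distance of the peak centre from the gene start, positive into the gene and beyond. Both aged naive libraries lie above both young ones in every panel but that of chrX:101754399-101755537. There the reads are 14.3 and 24.8 in aged and 14.1 and 16.0 in young naive cells. At the lead peak the aged naive libraries have 447 and 407 reads, against 140.1 and 121 in the young ones.

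Tumour cells were set against naive cells of the same age, where batch and tissue cannot be told apart. In young OT-1 Tprog 25 of 70 peaks were higher and 5 lower than in young naive cells (background 15.0% and 9.15%). In young OT-1 Tterm 24 were higher and 22 lower (background 22.4% and 17.9%), and in aged OT-1 Tterm 20 were higher and 27 lower than in aged naive cells (background 21.4% and 26.3%). At Ccr7 4 of 15 peaks were higher and none lower in young Tprog, whereas 1 was higher and 11 lower in young Tterm. At Cxcr5 6 of 10 peaks were higher and 1 lower in young Tprog, and 3 were higher and 4 lower in young Tterm. Its lead peak had 890.1 and 1134 reads in young OT-1 Tprog, 209 to 296 (median 255) in young OT-1 Tterm and 168 and 164 in young naive cells. The difference from naive was 2.59 ± 0.31 (SE, adjusted p = 1.84e-06) in Tprog and 0.69 ± 0.26 (SE, adjusted p = 0.0337) in Tterm. At Cx3cr1 the lead peak had 943 and 996 in young OT-1 Tprog, 928 to 1708 (median 1172) in young OT-1 Tterm and 413 and 429 in young naive cells. The difference from naive was 1.20 ± 0.37 (SE, adjusted p = 0.0202) in Tprog and 1.50 ± 0.31 (SE, adjusted p = 0.000353) in Tterm. For Ccr2 the lead peak differed from naive by 1.91 ± 0.34 (SE, adjusted p = 0.000239) in young Tprog, 2.83 ± 0.28 (SE, adjusted p = 3.35e-08) in young Tterm and 1.36 ± 0.28 (SE, adjusted p = 0.000451) in aged Tterm. Of the 7 Ccr2 peaks, 2 were higher and 1 lower than naive in young Tprog. In young Tterm 4 were higher and 2 lower, and in aged Tterm 3 were higher and 1 lower. Cxcr3 was higher at 5 of 8 peaks in young Tprog and in young Tterm than in young naive cells. In aged Tterm none was higher and 3 were lower than in aged naive cells. Its lead peak differed from naive by 1.57 ± 0.26 (SE, adjusted p = 3.18e-05) in young Tterm and by 0.02 ± 0.26 (SE, adjusted p = 0.955) in aged Tterm. At Cxcr4 a distal peak, chr1:128518375-128519600, had 31.2 to 324 (median 199) reads in young OT-1 Tterm and 20.6 and 30.5 in young naive cells, a difference of 2.88 ± 0.47 (SE, adjusted p = 2.96e-05). Another, chr1:128602309-128603275, went the other way, with 9.31 to 50.8 (median 18.3) in young OT-1 Tterm, 206 and 209 in young naive cells and -3.69 ± 0.62 (SE, adjusted p = 4.17e-05). The promoter peak of Cxcr4 had 326 to 471 (median 407) in aged OT-1 Tterm and 1116 and 1018 in aged naive cells, a difference of -1.42 ± 0.26 (SE, adjusted p = 0.000141).

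Other genes of the pathway came from lists of 15 further receptors, 12 ligands of the 7 receptors and 11 signalling genes. In young endogenous cells the further receptors had 17 peaks higher and 14 lower in Tterm of 59, the ligands 1 higher and 4 lower of 16, and the signalling genes 10 higher and 17 lower of 116, beside the 14.3% higher and 11.3% lower of all tested peaks. The median log2 differences were 0.26, -0.37 and -0.16. Ccr6, the receptor for CCL20, fell: its gene-end peak averaged 95.5 reads in young Tterm and 624 in young Tprog (log2 difference -2.68, adjusted p = 1.66e-10). Ccr1, which lies with Ccr2 in a cluster of receptor genes on chromosome 9, rose, at 617 reads in young Tterm and 164 in young Tprog (log2 difference 1.94, adjusted p = 1.10e-09). In young OT-1 cells Ccr1 differed by 2.08 (adjusted p = 7.00e-07) and Ccr6 by -2.81 (adjusted p = 6.16e-06). Among signalling genes Arrb2, which encodes an arrestin that shuts down and internalizes such receptors, was higher in Tterm at 1 peak in all 4 contrasts. Its log2 differences were 1.41 in young and 1.43 in aged endogenous cells and 1.31 in young and 1.30 in aged OT-1 cells. Of the ligands, Cxcl9 fell at a peak with 53.6 reads in young Tterm and 110 in young Tprog (-1.04, adjusted p = 0.00604). Further receptors had 1 peak higher and 7 lower of 59 in Tadys against aged Tterm, beside 2.06% and 4.23% of all tested peaks. The Ccr6 peak had 327 reads in Tadys and 114 in aged Tterm (1.53, adjusted p = 0.00138). In aged against young naive cells 6 of 73 further receptor peaks were higher and 4 lower, beside 4.08% and 1.16% of all tested peaks. Ccr9, a gut-homing receptor, was lower there at a peak with 33.1 reads in aged and 137 in young naive cells (-2.03, adjusted p = 7.69e-05).

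As a description, the peaks of other genes most like each lead peak were sought over the 17 endogenous libraries, among 54341 peaks with a mean of 30 or more, by Pearson's r of log2 values. The closest to the Ccr7 lead peak was one of Fam53b (r = 0.98), to that of Cxcr5 one of Mbp (0.98), to that of Cxcr4 one of Bcl2l14 (0.94) and to that of Cxcr3 one of Il20rb (0.92). For Ccr2 it was a peak of the chemokine gene Ccl3 (0.98), for Cxcr6 one of the chemokine gene Ccl5 (0.88) and for Cx3cr1 one of Prkci (0.95). All these peaks share the same libraries and groups.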

How the data were processed

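ATAC-seq was measured in 38 libraries of sorted mouse CD8+ T cells. Per the submitters' processing notes, the build was mm10 and the tools were DESeq2 1.28.1, MACS2 2.1.1, Bowtie2 2.2.9, SAMtools 1.3.1 and Picard 2.8.0. The merging of peaks, the shifting of reads and the pooling of libraries are not described there. As deposited by the authors, the tables hold signal per peak, reads in peaks divided by 1 size factor per library. Whole reads were recovered for 100% of values within 0.02 and gave depth and count tests. In the endogenous table median widths of peaks were 977 bp at the 7 loci and 909 bp over all peaks; in the OT-1 and naive table they were 800 and 513 bp.

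Peaks were given to 1 of 21896 protein-coding RefSeq genes (GRCm38.p6) by distance to the gene body, up to 100000 bp. A start peak lies within 1000 bp of the start, or of either end where no strand was at hand (Ccr7, Cxcr5). For each table, limma 3.58.1 (R 4.3.3) fitted log2(normalized reads + 1) in 1 model of every group, with a variance trend and, in the OT-1 and naive table, a term for batch 6, so log2 differences can differ from the ratio of means. P-values were adjusted by Benjamini-Hochberg over all 71756 or 84091 tested peaks. The 15 comparisons are each named by their groups. The fit was tested on simulated reads, with 100 peaks changed at each fold. For young endogenous Tterm against Tprog it recovered 46% of 2-fold and 87% of 4-fold changes, for age in endogenous Tterm 38% and 82%, for young OT-1 Tterm against Tprog 21% and 62%, and for age in naive cells 6% and 45%. False calls were 2.92%, 2.44%, 10.75% and 7.27% of calls in these 4, the last 2 above the 5% aimed at. For each locus and comparison the lead peak, the start peak and up to 3 called peaks of lowest adjusted p could be named. The members, lists and tests were chosen with earlier results of these data known. Alternatives were pseudocounts of 0.5 and 5, no filter, equal library totals, edgeR 4.0.16, DESeq2 1.42.0, a replicate block, a distance of 10000 bp, batch alternatives and each library left out. Same-numbered replicates did not deviate together in every pair of any comparison with 3 or more pairs, so they were not treated as paired. Python 3.11.15 and matplotlib 3.10.9 were used for tables and plots.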

Additional observations from a re-analysis of the deposited data

Results flagged for a closer look

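Of 84 tests for a library far from the rest of its group 6 flagged a peak. By chance about 1 in 20 groups is flagged, but these tests share libraries, so the number of flags cannot be set against that rate. Of the 6, 4 were the same library, young OT-1 Tterm library 6, which was the highest of 7 at each. It had 792 reads at the Ccr2 peak chr9:124114603-124115492 (next 392), 1708 at the Cx3cr1 peak chr9:120054469-120056818 (next 1261), 428 at the Cx3cr1 start peak chr9:120067696-120068974 (next 273) and 67.7 at the Cxcr4 peak chr1:128608008-128608483 (next 27.5). Young endogenous Tprog library 1 was the highest of 4 at the Cx3cr1 peak chr9:120059391-120059648, with 68.5 reads (next 33.3). Young endogenous Tprog library 4 was the lowest of 4 at the Ccr2 peak chr9:124098991-124099968, with 128 reads (next 199). The cause was not tested.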

How the results depend on the processing

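The 92 named peak results had 1387 values under the alternatives, of which 1274 kept their side of the threshold and direction, 113 were no longer called and 0 reversed. Counts of calls moved by over 1.5 times in these cases. With a distance of 10000 bp, which leaves 31 endogenous and 38 OT-1 table peaks, there were 23 calls for young and 16 for aged endogenous Tterm against Tprog, 3 each for Tadys against Tterm and against Tprog, 13 for young OT-1 Tterm against Tprog, and 17, 29 and 26 against naive cells for young Tprog, young Tterm and aged Tterm; fewer peaks lie in range. DESeq2 gave 1 call each for age in endogenous Tterm and Tprog, 7 for age in OT-1 Tterm and 2 in OT-1 Tprog. Equal library totals gave 4 for age in OT-1 Tterm and 1 in OT-1 Tprog; edgeR and the fit with no batch term each gave 1 in OT-1 Tprog. Without batch 6, age in OT-1 Tterm gave 12, and without batch 4 & 5 the aged OT-1 Tterm against Tprog contrast gave 0. The replicate block, fitted with no batch term, gave 4 for Tadys against Tterm and changed no other count by over 1.5 times; the numbers are not known to pair the libraries. Leaving out each library gave 30 to 38 calls for young and 18 to 22 for aged endogenous Tterm against Tprog, 0 to 0 for both endogenous age contrasts and the age by subset term, 0 to 7 for Tadys against Tterm, 2 to 9 for Tadys against Tprog, 13 to 24 for young OT-1 Tterm against Tprog (13 without young Tprog library 2), 22 to 28 for aged OT-1, 0 to 3 for age in OT-1 Tterm, 0 to 19 in OT-1 Tprog, 7 to 8 for naive age, and against naive cells 21 to 25 for young Tprog, 36 to 47 for young Tterm and 36 to 47 for aged Tterm. Where a group is left with 1 library, that library is assumed to vary like the others. The cause of these moves was not tested. Depth limits the weakest peaks: a mean of 10 reads was the lowest tested.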
